A study of Mus musculus with 3 samples.

Results

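The C/D box snoRNAs of the imprinted Snrpn-Ube3a and Dlk1-Dio3 loci were examined in small RNA libraries from extracellular vesicles (EVs) of the neonatal mouse testis. The members were the snoRNA entries whose Rfam description carried SNORD64, SNORD107, SNORD108, SNORD109, SNORD112, SNORD113, SNORD114, SNORD115 or SNORD116. This rule found 5 families among 2780 small RNA entries of all types. The snoRNA entries with reads numbered 385, 363 and 399 in replicates 1, 2 and 3, and the members 4, 5 and 4 of them. Of the 9 names, 6 had an entry, and SNORD113 and SNORD114 share a family in Rfam. SNORD64, SNORD107, SNORD108 and SNORD109A belong by the rule to the Snrpn-Ube3a group, and SNORD113/SNORD114 makes up the Dlk1-Dio3 group. No row of another RNA type carried any of the 9 names.

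All 3 libraries belong to the same group. Each was a biological replicate made from EVs pooled from 10 C57/BL6 male mice at postnatal day 7 (PND7), so a library is a mixture of EVs from every cell type of the testes of 10 mice. The EVs were treated with proteinase K, PMSF and RNase A before RNA extraction, which digests proteins and RNAs outside the vesicle membrane. There was no library of testis tissue, of another age or of untreated EVs, so enrichment in EVs was not measured.

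A C/D box snoRNA is a short nucleolar RNA that carries a C box near its 5′ end and a D box near its 3′ end, binds fibrillarin, and usually guides 2′-O-methylation of ribosomal RNA. The members of these imprinted loci are called orphan snoRNAs because most have no known ribosomal target. They are cut from introns of long noncoding host RNAs that are expressed from 1 parental allele, the paternal one at Snrpn-Ube3a and the maternal one at Dlk1-Dio3. SNORD115 and SNORD116 are best known from neurons, and loss of the SNORD116 cluster is linked to Prader-Willi syndrome in humans. Imprints are erased and set anew in the germ line, which makes both loci of interest in a testis.

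In the GENCODE vM21 annotation of GRCm38, the build named mm10 in the submitters' processing notes, 210 snoRNA genes lie on chromosome 7 from Ube3a through Snrpn (59228750 to 60140219). Of these, 208 overlap the host RNA Snhg14. A block of 70 genes shares at least 80% of its bases with the RefSeq Snord116 gene, and an array of 135 genes of median length 79 bases lies next to Ube3a without a snoRNA name in either annotation. Snord64 and Snord107 have 1 gene each, and both lie in exons of the read-through gene Gm38393 between Snhg14 and Snrpn. On chromosome 12, 23 snoRNA genes lie between Dlk1 and Dio3 (109452823 to 110281097), 13 of them within the host RNA Rian. The 70 genes of the Snord116 block hold 27 distinct sequences with a median pairwise identity of 98.9%, whereas the 23 genes at Dlk1-Dio3 hold 23 distinct sequences with a median identity of 59.8%. Reads were deposited per family, so they cannot be divided between these genes.

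The sequences below show the members with a mouse gene of their name, and 2 genes that mark the range of the Dlk1-Dio3 cluster. DQ267102 had the highest mean identity to the other 22 genes there (67.1%), and AF357425 the lowest among those with both boxes (58.6%). The Snord116 gene Gm26504 is shown because SNORD116 had no entry in the files. Sequences run 5′ to 3′ from the GENCODE transcripts, with the C box letters TGATGA and the D box letters CTGA in capitals.
Snord64, chr7:59978808-59978874, minus strand, 67 bases: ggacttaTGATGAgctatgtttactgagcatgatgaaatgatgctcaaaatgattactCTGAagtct
Snord107, chr7:59980876-59980945, minus strand, 70 bases: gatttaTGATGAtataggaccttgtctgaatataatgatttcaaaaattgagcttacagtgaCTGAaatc
DQ267102, chr12:109656345-109656416, plus strand, intron of Rian, 72 bases: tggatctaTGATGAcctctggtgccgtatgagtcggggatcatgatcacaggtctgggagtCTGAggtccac
AF357425, chr12:109636012-109636084, plus strand, exon of Rian, 73 bases: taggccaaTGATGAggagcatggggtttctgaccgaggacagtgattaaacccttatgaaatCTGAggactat
Gm26504 (Snord116), chr7:59675988-59676081, minus strand, intron of Snhg14, 94 bases: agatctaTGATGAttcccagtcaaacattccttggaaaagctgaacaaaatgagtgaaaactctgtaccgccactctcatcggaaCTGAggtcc
Both boxes were looked for on the gene's own strand, TGATGA in the first 20 bases and CTGA in the last 15. They were found in 191 of the 210 genes at Snrpn-Ube3a and in 12 of the 23 at Dlk1-Dio3. Of all 1507 annotated mouse snoRNA genes, 305 (20.2%) had both, and these include the genes of both loci. The 1507 also include H/ACA box genes. The 210 genes hold 87 distinct sequences, so many of the 191 are copies. A gene without these exact letters in these windows may still carry a variant box.

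**Figure D1:**
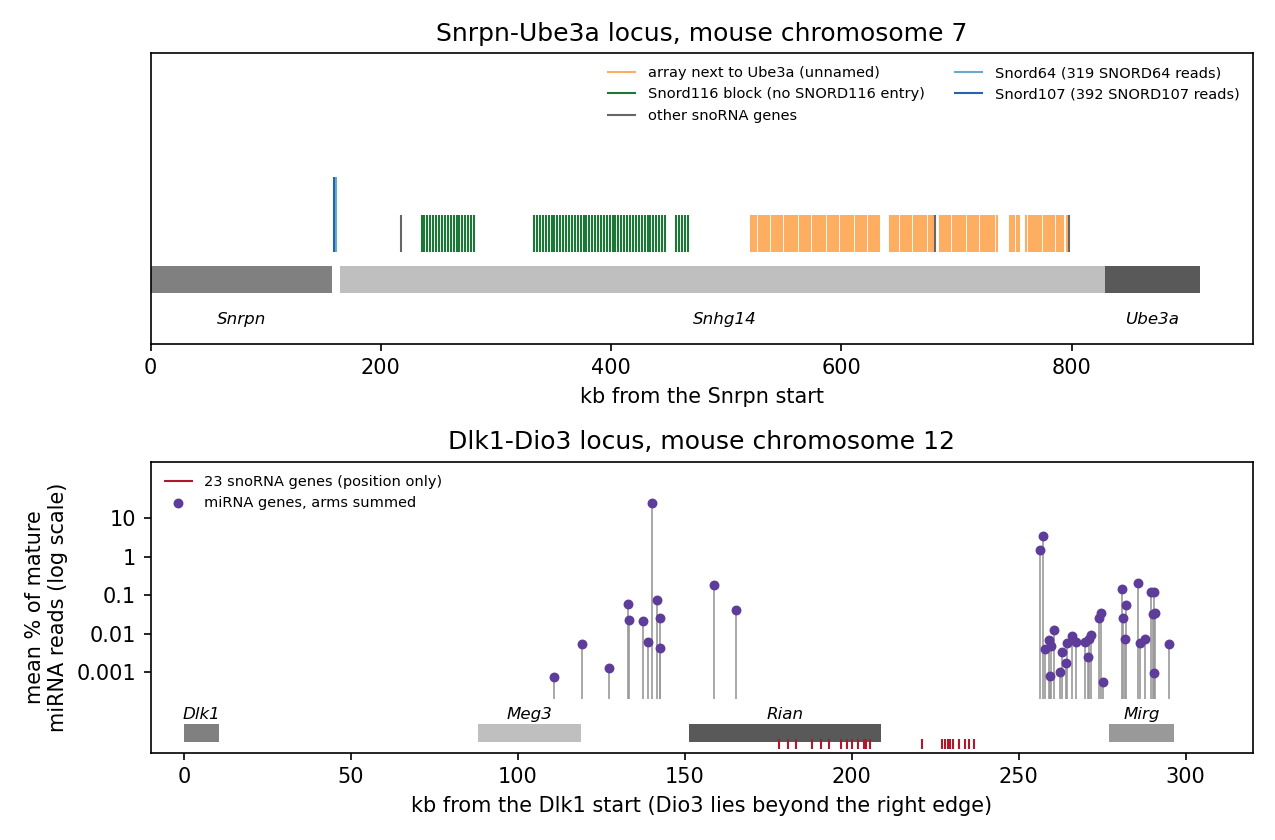
Maps of both loci with snoRNA genes as ticks, in kb from the start of Snrpn (upper panel) and of Dlk1 (lower panel). Host genes are bars, and in the lower panel the points give the mean share of mature miRNA reads (3 libraries, log scale) of each miRNA gene with its arms summed, with genes and ticks drawn below that scale. The 70 Snord116 genes and the array of 135 genes lie in Snhg14, while Snord64 and Snord107 stand side by side next to Snrpn.

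Replicates 1, 2 and 3 held 25716952, 26002463 and 27939308 clean reads, of which 242841, 135236 and 152322 were snoRNA reads. snoRNAs thus took 0.944% of the clean reads in replicate 1 against 0.520% and 0.545% in replicates 2 and 3, and this difference moves every value given per clean read. Values are therefore given as a share of the snoRNA reads of a library, or in CPM, counts scaled to the clean reads of the library, where stated. The 95% intervals are exact binomial (Clopper-Pearson) and cover counting error only, since PCR copies were not told apart. The libraries differed far beyond counting error over the 236 snoRNA entries with at least 10 reads in each, with a chi-square per degree of freedom of 83.9 to 144 between pairs, so none repeats the reads of another. That they are biological replicates comes from the labels.

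The 5 member families together held 1.41% ± 0.126 (SD, n = 3) of the snoRNA reads. The share was 1.36% in replicate 1, 1.56% in replicate 2 and 1.32% in replicate 3. SNORD113/SNORD114 alone gave 87.9% ± 4.86 of the member reads (SD, n = 3), and the remaining 4 families gave 12.1%.

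SNORD113/SNORD114, the orphan family placed by the rule at the Dlk1-Dio3 locus, was counted 3093, 1793 and 1708 times in replicates 1, 2 and 3. No mouse gene in GENCODE or RefSeq is named Snord113 or Snord114, so the locus of its reads rests on the family name. These reads were 1.27% (95% interval 1.23 to 1.32), 1.33% (1.27 to 1.39) and 1.12% (1.07 to 1.18) of the snoRNA reads, with a mean of 1.24% ± 0.106 (SD, n = 3). The interval of replicate 3 lay below those of replicates 1 and 2, which overlapped each other. The family ranked 16, 16 and 19 among the snoRNA entries of the libraries, and 11 among the 101 entries with SNORD in their description by mean share. Next above it by mean share was SNORD24, a ribosomal guide, with 1.31% ± 0.461, and next below was SNORD22 with 1.21% ± 0.197 (SD, n = 3 each). Both neighbours differed from SNORD113/SNORD114 by less than the spread between libraries.

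**Figure D2:**
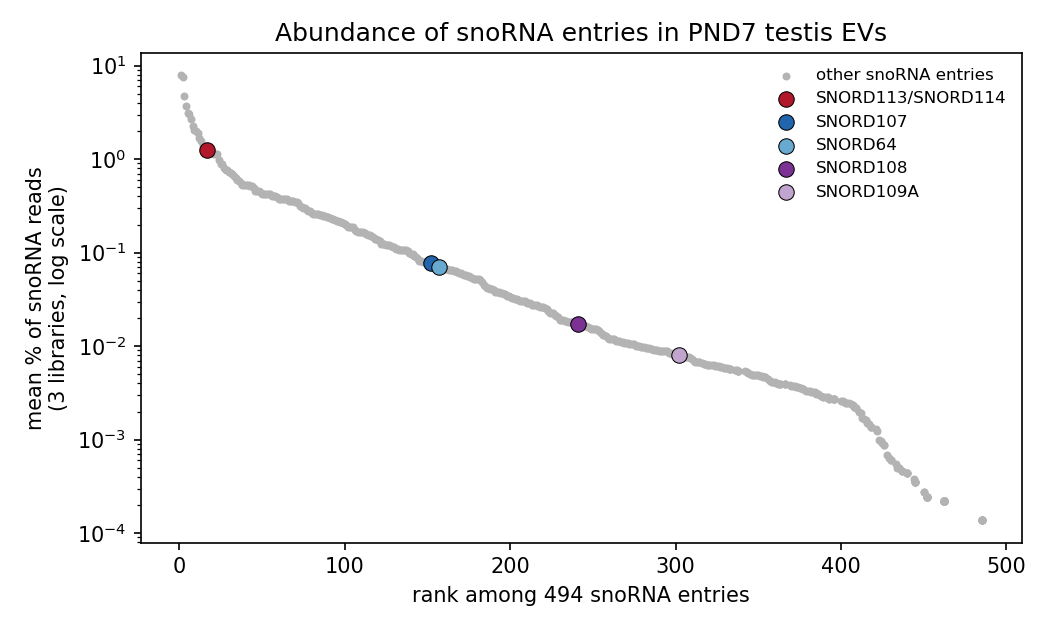
Mean share of snoRNA reads (3 libraries, log scale) against rank for every snoRNA entry, with the 5 member families in colour. SNORD113/SNORD114 stands at rank 17, and the Snrpn-Ube3a families stand between ranks 152 and 302.

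SNORD107, a single-copy snoRNA just downstream of Snrpn, had 149, 119 and 124 reads in replicates 1, 2 and 3. Its share of the snoRNA reads was 0.0614%, 0.0880% and 0.0814%, with a mean of 0.0769% ± 0.0139 (SD, n = 3). The libraries were close, and only replicate 1 lay lower, with an interval of 0.0519 to 0.0720 that did not reach that of replicate 2, 0.0729 to 0.105.

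SNORD64, its single-copy neighbour in the same read-through gene, had 49, 168 and 102 reads in the same order. The shares were 0.0202%, 0.124% and 0.0670%, with a mean of 0.0705% ± 0.0521 (SD, n = 3). No pair of the 3 intervals overlapped, and without replicate 2 the mean was 0.0436%. The 2 families differed in mean by less than the spread between libraries. The log2 ratio of SNORD64 to SNORD107 was -1.60, 0.50 and -0.28 in replicates 1, 2 and 3, so the family that was higher depended on the library (p = 0.75, two-sided exact permutation test that flips signs within libraries). In GENCODE the genes are 67 and 70 bases long and 65.4% identical.

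SNORD108 and SNORD109A, which are described from the human locus, were the least abundant members. SNORD108 had 0, 2 and 76 reads in replicates 1, 2 and 3, and SNORD109A had 17, 23 and 0. Of the 78 reads of SNORD108, 76 came from replicate 3, the library in which SNORD109A had none. Without replicate 3 the mean share of SNORD108 was 0.000739% in place of 0.0171%, and the mean of SNORD109A was 0.00800%, or 0.00350% without replicate 2 and 0.0120% without replicate 3. With 0 reads, the exact intervals reached 0.00152% for SNORD108 in replicate 1 and 0.00242% for SNORD109A in replicate 3, and a limit of 3 reads, the simpler bound for a count of 0, gave 0.00124% and 0.00197%. Summed after these values were seen, the pair had 17, 25 and 76 reads. Gaps were common among entries with such counts: of 129 snoRNA entries with 23 to 76 reads in their highest library, 62 (48.1%) had no read in at least 1 other library. That range was set by SNORD108 and SNORD109A, and both are counted in it. The gaps of both exceeded counting error. In replicate 3 the interval of SNORD108, 0.0393% to 0.0624%, lay above its intervals in replicates 1 and 2. The interval of SNORD109A in replicate 3 lay below its others. Neither reference table holds a mouse gene named Snord108 or Snord109, as for 39 of the 101 SNORD entries in all, so the genomic source of these reads is not given by the files.

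SNORD112, SNORD115 and SNORD116 had no entry in any library. The entries of each catalogue add up to the deposited total of all 13 classes in every library, so no snoRNA read lacks an entry. Whether the authors' databases held the 3 families is not given in the sources used here. Reads of a family that was not searched for could have been assigned to another entry or class. They could also be among the 62.8% to 65.9% of clean reads counted as intergenic, intron, exon, repeat or unmapped, without a small RNA name. If the families were searched for, the limit of 3 reads is 0.00124%, 0.00222% and 0.00197% of the snoRNA reads of replicates 1, 2 and 3. The missing SNORD116 entry stands beside 319 reads of SNORD64 and 392 of SNORD107 from the same end of the locus, although the Snord116 block has 70 annotated genes.

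**Figure D3:**
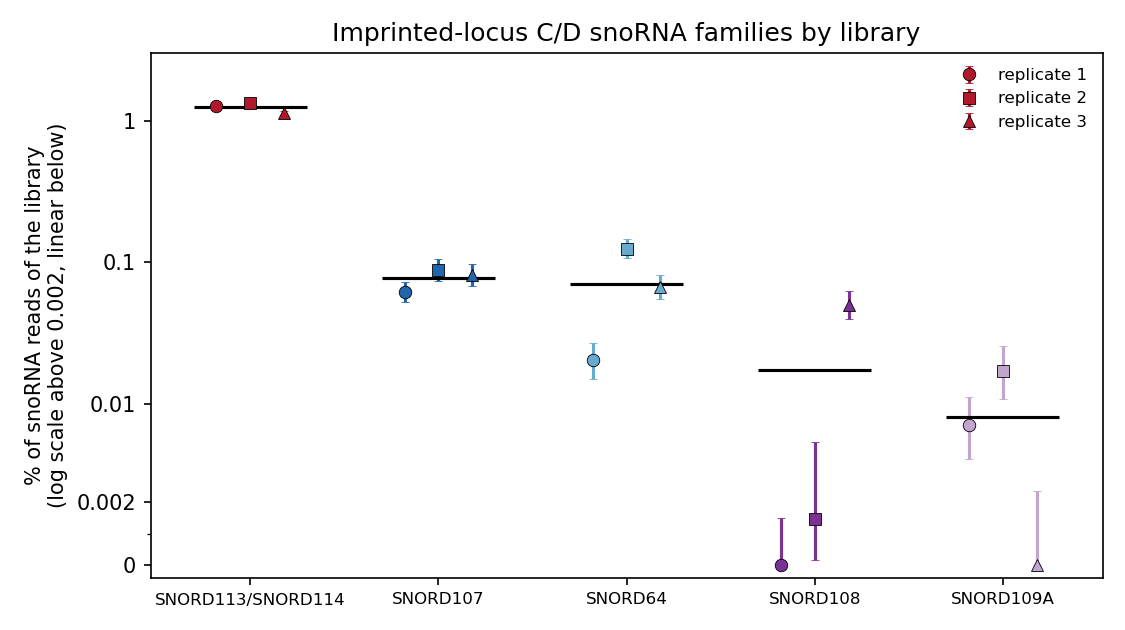
Share of snoRNA reads of each member family in replicates 1 (circles), 2 (squares) and 3 (triangles), on a scale that is logarithmic above 0.002% and linear below. Bars are exact 95% binomial intervals and horizontal lines are means of 3 libraries. SNORD113/SNORD114 lies above 1% in every library, SNORD64 differs between all 3, and SNORD108 is highest in replicate 3, where SNORD109A is at 0.

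The comparison between the loci asked which group of families, assigned to a locus by the rule, held more reads in the EVs. The Snrpn-Ube3a families together had 215, 312 and 302 reads in replicates 1, 2 and 3, or 0.0885%, 0.231% and 0.198% of the snoRNA reads, with a mean of 0.173% ± 0.0745 (SD, n = 3). The Dlk1-Dio3 family was higher in every library, 14.4-fold in replicate 1, 5.75-fold in replicate 2 and 5.66-fold in replicate 3. The Snrpn-Ube3a sum lacks SNORD115 and SNORD116, and the Dlk1-Dio3 group lacks SNORD112, because these families had no entry. Whether they were searched for is not known, so these folds compare the families with an entry and not the whole loci. The log2 ratio was 2.96 ± 0.77 (SD, n = 3) and above 0 in 3 of 3 libraries. In the same two-sided exact permutation test p was 0.25. With 3 libraries no smaller p can be had, and a threshold of 0.05 is out of reach. Divided by the length of 1 gene, which leaves gene number aside, the log2 ratio was 3.09. SNORD113/SNORD114 took the median length of the 23 genes at its locus, because no mouse gene carries its name either, and SNORD108 and SNORD109A were left out.

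The excess depended on which genes stood for each locus when reads were divided by gene number, a choice made after the values were seen. Divided by the 23 annotated snoRNA genes at Dlk1-Dio3, SNORD113/SNORD114 had 134.5, 78.0 and 74.3 reads per gene in replicates 1, 2 and 3. The single-copy Snord64 had 49 to 168 reads and Snord107 had 119 to 149. The log2 ratio of the reads per gene to the mean of this pair was 0.44, -0.88 and -0.61, with a mean of -0.35 ± 0.70 (SD, n = 3), and its sign differed between libraries (p = 0.5, same exact permutation test). The annotation does not say which of the 23 genes belong to the Rfam family. Most of the 210 annotated snoRNA genes at Snrpn-Ube3a lie in the Snord116 block and the array next to Ube3a. Divided instead by all 210, the Snrpn-Ube3a group had 1.02, 1.49 and 1.44 reads per gene, and the log2 ratio rose to 6.15. That rise was fixed by the gene numbers, 210 and 23, and does not come from the reads.

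**Figure D4:**
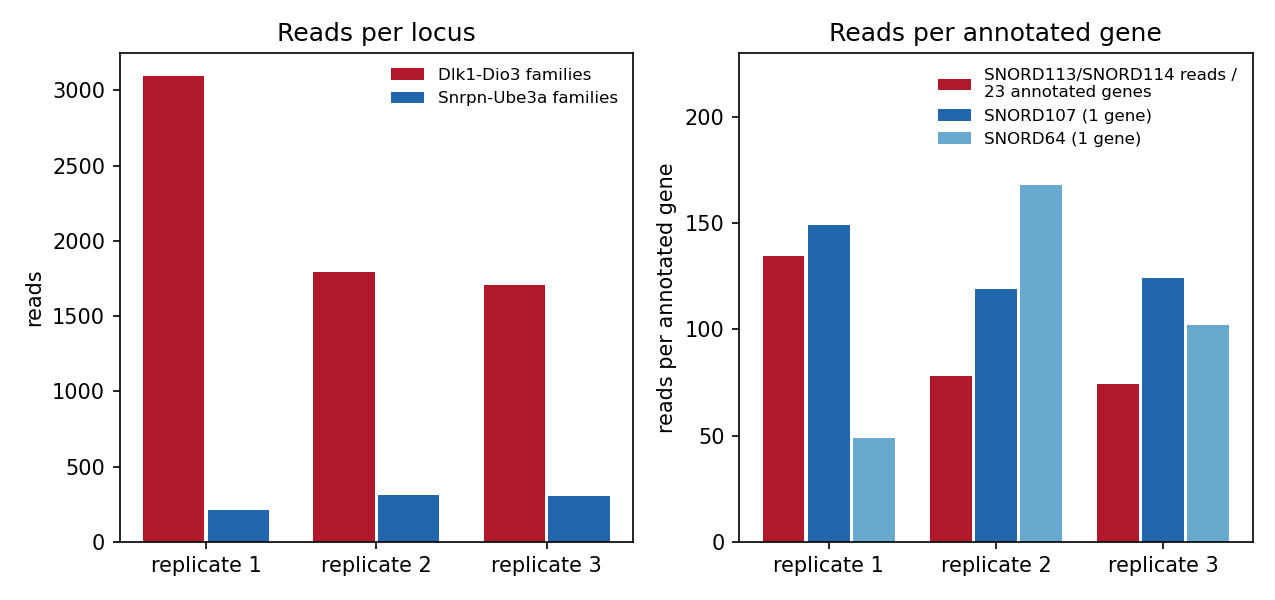
Left, reads of the Dlk1-Dio3 and Snrpn-Ube3a families in each library. Right, reads per annotated gene, with SNORD113/SNORD114 divided by 23 genes and SNORD107 and SNORD64 by 1 gene each. Dlk1-Dio3 is higher in every library on the left. On the right SNORD107 is above SNORD113/SNORD114 in every library, and SNORD64 is below it in replicate 1 and above it in replicates 2 and 3.

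As a share of snoRNA reads, SNORD113/SNORD114 was among the steadiest entries. Its highest library exceeded its lowest 1.18-fold, a smaller spread than in all but 2.12% of the 236 entries with at least 10 reads in each library, whose median was 2.05-fold. SNORD107 varied 1.43-fold, with 16.9% of the entries below it, and SNORD64 varied 6.16-fold, with 95.8% below it. The entries were not matched for abundance, and those with few reads vary more from counting error alone. In CPM of clean reads the order changed. SNORD113/SNORD114 had 120, 69.0 and 61.1 CPM in replicates 1, 2 and 3, a 1.97-fold range, against a median of 2.81-fold over the same entries. The share of entries with a smaller range rose to 25.4%. SNORD107 had 5.79, 4.58 and 4.44 CPM, a 1.31-fold range with 5.08% of entries below it. SNORD64 had 1.91, 6.46 and 3.65 CPM, a 3.39-fold range with 63.6% of entries below it, nearer the median than as a share of snoRNA reads. On this scale SNORD113/SNORD114 rose with the higher snoRNA content of replicate 1, whereas the Snrpn-Ube3a sum had its lowest value there, 8.36 CPM, with a 1.44-fold range over the libraries.

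**Figure D5:**
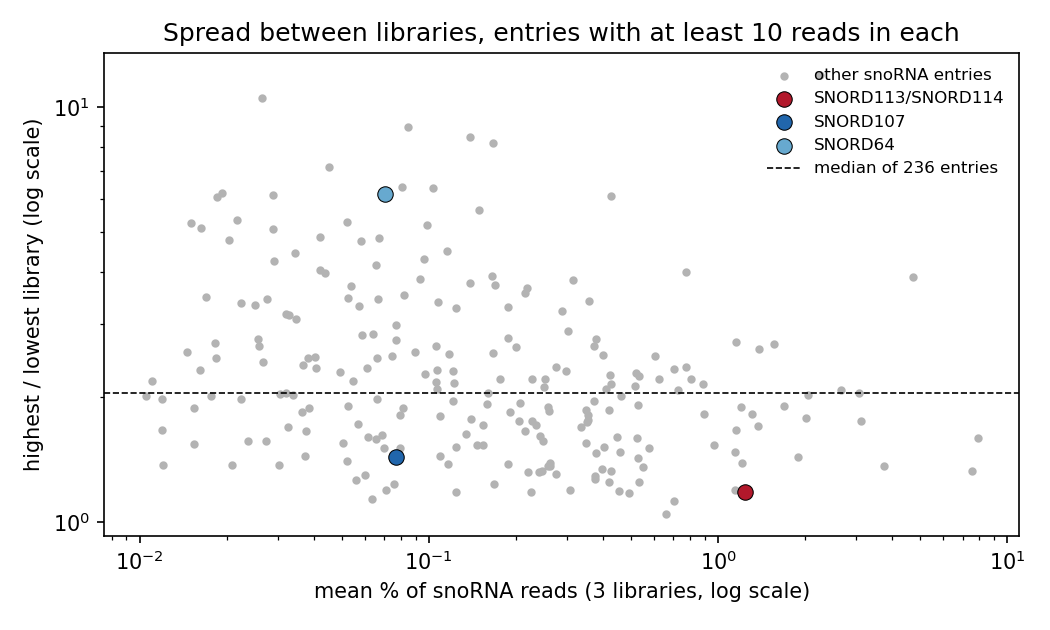
Highest library divided by lowest library, against mean share of snoRNA reads, for 236 entries with at least 10 reads in each library (both axes log scale). The dashed line is the median, 2.05-fold. SNORD113/SNORD114 and SNORD107 lie below it and SNORD64 above it.

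The snoRNA entries nearest to each locus in their profile over the 3 libraries were sought among 130 other entries with at least 100 reads in each library, by the root mean square difference of centred log2 shares. For SNORD113/SNORD114 they were SNORD73 (0.06), SNORD41 (0.09) and U83B (0.11), against a median of 0.38 over the entries. For the Snrpn-Ube3a sum they were sR18 (0.06), snR79 (0.08) and SNORD27 (0.13), against a median of 0.76. With 3 libraries this is a description of similar profiles. sR18 and snR79 name the family models that reads were assigned to. The source of those reads was not tested, so these names need not stand for mouse snoRNAs.

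The Dlk1-Dio3 locus also encodes a large group of miRNAs, cut from maternally expressed transcripts. All 52 listed miRNA names have a gene between Dlk1 and Dio3 in RefSeq, and 44 of them had mature reads. Together these miRNAs held 37.6%, 30.7% and 28.9% of the mature miRNA reads in replicates 1, 2 and 3, with a mean of 32.4% ± 4.59 (SD, n = 3). miR-127-3p, which lies antisense to Rtl1, made up most of it with 26.0% ± 4.70, followed by miR-411-5p with 3.50% ± 0.536 and miR-379-5p with 1.47% ± 0.288 (SD, n = 3 each). miR-154-5p and miR-341-3p came next with 0.211% and 0.186%. The summed share and miR-127-3p were highest in replicate 1, whereas the other 4 named miRNAs were highest in replicate 2.

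The tissue label was checked with miRNA markers, in CPM of the mature miRNA reads. The gonadal miR-202 was abundant, with 25783 ± 4325 CPM (SD, n = 3), and 3 of 5 germ cell miRNAs had reads, summing to 599 to 1264 CPM, with miR-449b and miR-449c at 0. Because SNORD115 and SNORD116 of the Snrpn-Ube3a locus, which had no entry here, are best known from neurons, neuronal miRNAs were checked too. Of 5, 4 had reads, summing to 286 to 474 CPM, and miR-124 was at 0 in every library. Any link between these markers and the missing entries was not tested. Erythroid (3 of 3) and muscle (3 of 3) markers summed to 390 to 607 and 574 to 1040 CPM, and the liver marker miR-122 reached at most 0.994 CPM. The part of these other cell types in the snoRNA reads was not tested.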

How the data were processed

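Small RNA of PND7 testis EVs was sequenced by BGI on the BGISEQ-500 platform. The authors removed low-quality reads, used Bowtie2 and cmsearch for mapping, and assigned classes in the order miRBase, piRNABank, human and plant snoRNAs, Rfam, other. They deposited whole-number read counts per class and per small RNA entry, not normalized, together with each class as a percent of clean reads. A further deposited column, named for molecular identifiers, equalled CPM of clean reads on every small RNA row and was not used. Member families were matched by description, and counts were divided by the snoRNA reads of each library (135236 to 242841). The 5 rows naming no small RNA entered only the clean reads. Loci were compared by an exact permutation test flipping signs within libraries. The chi-square statistic was tested on simulated data. All member families were named. The members, lists and tests were chosen with earlier results of these data known. Gene positions and sequences came from GENCODE vM21, and gene names also from RefSeq (GRCm38.p6). Identity was taken from global alignments (Biopython 1.88). Alternatives changed the denominator, the rows, the families, the length and gene number, pooling, and the libraries. Scripts ran in Python 3.11.15. SciPy 1.17.1 gave the intervals, pandas 2.3.3 with numpy 2.4.6 the tables, and matplotlib 3.10.9 the figures.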

Additional observations from a re-analysis of the deposited data

How the results depend on the processing

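The scaling to gene number and the miRNA list by position were chosen after the data were examined. The log2 ratio of Dlk1-Dio3 to Snrpn-Ube3a reads was 2.96, between 2.51 and 3.18 when 1 library was left out, 3.18 with families of at least 10 reads in every library, and 2.99 pooled. Per annotated gene of the whole loci the ratio was 6.15, a rise fixed by the gene numbers. It reversed to -0.35 per annotated gene when Snord64 and Snord107 stood for their locus, since that choice divides SNORD113/SNORD114 by 23. SNORD115 and SNORD116 had no entry, so with them alone for Snrpn-Ube3a the share was 0 and no ratio could be taken. The number of families fell from 5 to 3 when 10 reads were required in every library. Other denominators moved every share by construction. Of all clean reads, all members held 0.00938%, Dlk1-Dio3 0.00835% and Snrpn-Ube3a 0.00104%, of all small RNA reads they held 0.0263%, 0.0233% and 0.00295%, and of entries with SNORD in the description 2.38%, 2.09% and 0.290%, in the same order. Leaving out 1 library gave 1.34% to 1.46% for all members, 1.20% to 1.30% for Dlk1-Dio3, 0.143% to 0.214% for Snrpn-Ube3a and 29.8% to 34.2% for the Dlk1-Dio3 miRNAs. For single families it gave 0.0436% to 0.0956% for SNORD64, 0.0714% to 0.0847% for SNORD107, 0.000739% to 0.0257% for SNORD108 and 0.00350% to 0.0120% for SNORD109A. SNORD108 and SNORD109A had at most 76 reads in a library. SNORD108 had none in replicate 1, the library with the most snoRNA reads (242841).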

Other observations

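Families named for other organisms received reads in the same class. A total of 92 snoRNA entries have a description that names a fungus, plant, nematode, slime mould, ciliate, trypanosomatid or archaeon, and they held 3.13% to 5.68% of the snoRNA reads of a library. Most of this was 1 entry, A. fumigatus snoRNA Afu_294, with 1.96%, 3.21% and 4.02% in replicates 1, 2 and 3. All 92 together held 4.47% ± 1.28, and the other 91 entries, separated after the values were seen, held 1.41% ± 0.243 (SD, n = 3 each). The imprinted-locus families held 1.41% ± 0.126 (SD, n = 3), of which SNORD113/SNORD114 alone gave 1.24%. The median of the 92 was 23 reads in the highest library. These descriptions name the family model a read was assigned to, and the source of the reads was not tested. Only descriptions that spell out an organism or group were counted. Entries named by a symbol alone, such as snR79 (mean 1.38%) and sR18 (mean 0.775%), were left out whatever their organism. The share of families from other organisms may therefore be higher.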
